A study of Mus musculus with 20 samples.

Results

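The genes described here are 10 serotonin receptor genes of sensory neurons, measured in the dorsal root ganglia (DRG) of lumbar levels, where the cell bodies of sensory nerve fibres lie. They are Htr1a, Htr1b, Htr1d, Htr1f, Htr2a, Htr2b, Htr3a, Htr3b, Htr4 and Htr7, taken by symbol from a table of 78258 genes, 51487 of which had a symbol. The symbols of 4 further receptor genes, Htr2c, Htr5a, Htr5b and Htr6, were also found, which makes 14 in all. The genes were chosen by measured values, since Htr1a had been seen to be lower in knockout ganglia on the uninjured side. Its values in that contrast, and in every contrast that uses those libraries, are therefore a description from which nothing is read. The counts of called genes below leave Htr1a out of those contrasts, except where Htr1a is named as counted.

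Serotonin (5-hydroxytryptamine, 5-HT) is released by platelets, mast cells and descending nerve fibres, and it changes the excitability of sensory neurons. Most of its receptors are G protein-coupled: the 5-HT1 group couples to inhibitory Gi/o proteins, the 5-HT2 group to Gq/11 and phospholipase C, and 5-HT4, 5-HT6 and 5-HT7 to stimulatory Gs. The 5-HT3 receptor is a cation channel built from Htr3a subunits, with or without Htr3b.

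RNA came from 10 male mice, 5 per genotype, each giving 1 library from the ganglia on the side of a sciatic nerve transection (ipsilateral) and 1 from the opposite side (contralateral). The conditional knockout (cKO) mice were Ahr fl/fl and carried Thy1CRE-ERT2/EYFP, a tamoxifen-inducible Cre recombinase and a yellow fluorescent protein under the neuronal Thy1 promoter, so recombination was directed to Thy1-expressing cells and not to the whole ganglion. Control mice were Ahr f/f or f/+ by the protocol text, FF by the genotype field and Wildtype by the sample titles, which do not match each other, and the labels name no Cre for them. Every mouse of both genotypes received tamoxifen at 100 mg/kg daily for 5 days at 17 weeks of age, was lesioned 4 weeks later, and gave L4 to L6 ganglia 1 day after the lesion, between 2 and 4 hours after lights on. The contralateral ganglia thus come from lesioned mice, and no unlesioned mouse was analysed here. A treatment field of the labels speaks of spinal cord injury, whereas their protocol text describes the nerve transection used here. All these libraries are bulk RNA, in which fewer cells of a type and less RNA per cell cannot be told apart.

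Libraries held 76.2 to 118.5 M counts. All 10 general markers of sensory neurons passed the filter on low counts, and their sum was 6917 to 8061 CPM (TMM-normalised counts per 1 M) in every library. Ahr, the targeted gene, had 19.5 to 21.0 CPM in the contralateral cKO libraries and 21.3 to 27.2 in the contralateral control libraries, groups that did not overlap. This log2 fold change of -0.25 ± 0.07 (SE) had an edgeR adjusted p of 0.103. Without the contralateral and ipsilateral libraries of cKO mouse H99, that adjusted p was 0.0353, and the number of genes called between genotypes on the contralateral side went from 21 to 3326. The number of contralateral genotype calls thus depended on whether the 2 libraries of this mouse were in the fit, although its contralateral Htr1a and Ahr values lay inside the range of its group. The receptor values without H99 are given together after the comparisons.

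Htr1a encodes an inhibitory Gi/o-coupled receptor with a single-exon gene. Its contralateral level was 15.7, 16.1, 15.5, 18.0 and 16.1 CPM in the control mice H62, H63, H65, H96 and H97. The contralateral cKO libraries had 13.9, 12.9, 11.7, 12.9 and 10.7 CPM in mice H61, H64, H95, H99 and H100. The highest cKO value lay below the lowest control value, which is the difference on which the genes were selected. The fitted log2 fold change was -0.39 ± 0.06 (SE), a level 23.6% lower, and -0.40 without H99. Of all genes tested, 0.0735% were called in this contrast, and nothing is read from Htr1a being among them.

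On the ipsilateral side the genotypes overlapped in Htr1a. Control ipsilateral libraries had 16.4, 15.5, 15.9, 15.9 and 15.4 CPM, and cKO ipsilateral libraries had 16.6, 16.1, 15.2, 15.1 and 15.7 CPM, in the same mouse order. The log2 fold change between genotypes was -0.01 ± 0.06 (edgeR adjusted p = 1), and this contrast shares no library with the one that chose the genes. The means were 15.8 ± 0.39 and 15.7 ± 0.64 CPM (SD, n = 5), both inside the range of the contralateral control libraries. Within a mouse, the ipsilateral minus contralateral difference of log2 CPM was above 0 in 5 of 5 cKO mice, with a mean of 0.34 ± 0.13 (SD) and a range of 0.22 to 0.55. In control mice it was above 0 in 2 of 5, with a mean of -0.04 ± 0.10 and a range of -0.18 to 0.06. The difference between the fitted responses was 0.38 ± 0.08, given as a description because it contains the selecting libraries.

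The start site of Htr1a was inspected because the targeted gene encodes a transcription factor. RefSeq promoter windows (GRCm38.p6, 250 bases before to 50 after the start) were found for 8 of the 10 genes, all but Htr3a and Htr4. Both strands were searched for GCGTG (the core of the aryl hydrocarbon receptor site), TGANTCA (AP-1), TGACGTCA (the cyclic AMP response element) and TGANGCAA (a C/EBP-ATF composite site). Several motifs share the letters TGA, but no match printed here overlaps another, and matches are in capitals. The 250 bases before the start are printed for Htr1a, on which the choice turned, for Htr2b, the receptor with the largest rise, and for Slc6a4, the pathway gene with the largest rise.
Htr1a (chr13:105443443-105443692, + strand): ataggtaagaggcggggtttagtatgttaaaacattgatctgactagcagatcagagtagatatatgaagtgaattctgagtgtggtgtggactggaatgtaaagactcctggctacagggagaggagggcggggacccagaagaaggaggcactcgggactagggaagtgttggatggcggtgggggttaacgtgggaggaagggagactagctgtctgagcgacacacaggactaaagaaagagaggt
Htr2b (chr1:86111981-86112230, - strand): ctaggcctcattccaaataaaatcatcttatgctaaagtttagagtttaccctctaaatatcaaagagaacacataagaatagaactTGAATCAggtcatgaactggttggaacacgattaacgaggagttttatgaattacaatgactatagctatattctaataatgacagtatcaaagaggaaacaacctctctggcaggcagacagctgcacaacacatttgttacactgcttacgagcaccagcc
Slc6a4 (chr11:76998347-76998596, + strand): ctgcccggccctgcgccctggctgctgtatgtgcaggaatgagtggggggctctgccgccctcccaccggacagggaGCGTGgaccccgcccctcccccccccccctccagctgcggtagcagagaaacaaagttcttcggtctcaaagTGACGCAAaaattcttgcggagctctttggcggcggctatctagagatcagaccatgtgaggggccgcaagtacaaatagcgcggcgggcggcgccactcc
The Htr1a window held none of the 4 motifs, which says only that these letters are absent from it. Htr2b had an AP-1 match 163 bases before the start. Slc6a4 had a GCGTG match 173 bases and a TGANGCAA match 101 bases before the start. The 50 bases after the RefSeq start lay in a GENCODE M21 transcript for Htr1a, but not for Htr2b or Slc6a4. The positions of their matches therefore hold for the RefSeq start only. Among all 32851 promoter windows of this length, 32.39% held GCGTG, 7.81% TGANTCA, 1.79% TGACGTCA and 3.69% TGANGCAA. GCGTG occurred in the windows of 2 of the 8 genes, Htr1d and Htr7, and each match is a description of letters, not of a bound site.

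Compared per length of exon, Htr3a was the most abundant receptor transcript in each of the 4 groups. Its level in contralateral control ganglia was 75.9 CPM per kb, and it made up 57.0% ± 2.4 (SD, n = 5) of the summed CPM per kb of the 14 receptors. Htr1d followed at 12.5 CPM per kb, then Htr3b at 10.8, Htr1b at 8.33 and Htr7 at 6.27. The ranges of Htr3b and Htr1b overlapped, while Htr1d and Htr3b did not overlap in this group. Htr2a at 3.87, Htr1a at 3.63, Htr5b at 3.57 and Htr4 at 3.48 CPM per kb formed a run in which each neighbouring pair overlapped. Htr1f stood at 2.69, and Htr2b, at 0.063 CPM per kb, overlapped Htr2c at 0.040. In ipsilateral control ganglia Htr1f moved up to 3.48 CPM per kb and overlapped Htr1a at 3.53, while Htr4 was at 2.15. In contralateral cKO ganglia Htr1a stood at 2.77 CPM per kb, behind Htr5b, Htr2a and Htr4, and overlapped Htr4 at 3.10 and Htr1f at 2.46.

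**Figure D1:**
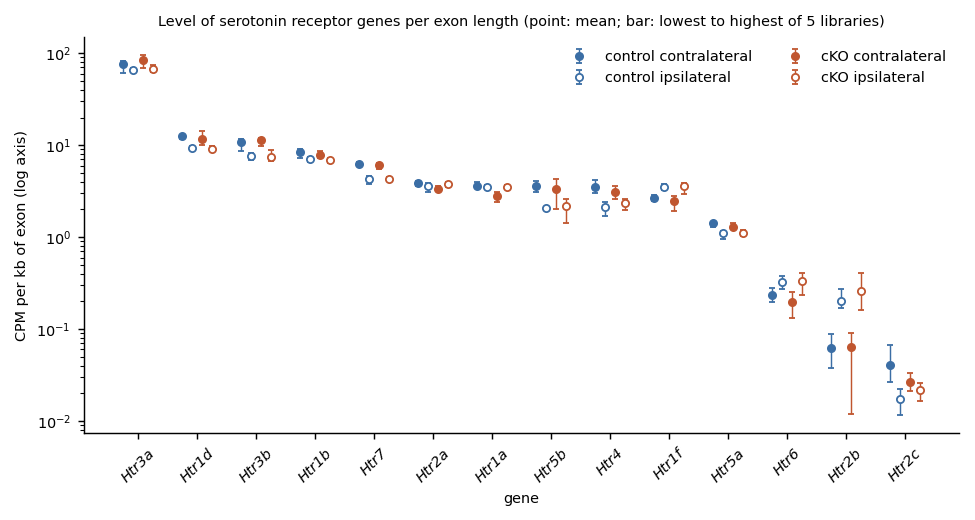
Level of the 14 serotonin receptor genes in CPM per kb of merged exon (log axis), with points for the mean of 5 libraries, bars from the lowest to the highest library, and colours and fill for genotype and side. Htr3a lies above every other gene in each group, and Htr2b and Htr2c lie lowest in contralateral ganglia.

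The first question of the design is which receptors differ between the injured and uninjured side. In control mice 7 of the 9 genes other than Htr1a were called (edgeR adjusted p under 0.05), 2 higher and 5 lower on the ipsilateral side, against 29.9% of the 28564 genes tested, 13.8% higher and 16% lower. In cKO mice 8 of these 9 were called, 2 higher and 6 lower, against 31.3% of all genes, 16.2% higher and 15.1% lower. A fit of only the 19365 genes averaging 1 CPM or more, which leaves out Htr2b, called 40.5% of them in control and 42.8% in cKO mice. The part of expression level in the receptor counts was not tested. The median log2 fold change of the 9 genes was -0.24 in control and -0.33 in cKO mice, and of all tested genes -0.0047 and -0.030. Both contrasts are of separate mice, but the genes were chosen with these data known. Ipsilateral and contralateral ranges did not overlap in 6 of the 9 genes in control mice, against 23.6% of all genes, and in 7 of 9 in cKO mice, against 20.2%. Beside these counts, the general neuron markers had 5 of 10 genes called lower in control and 3 of 10 in cKO mice, with median log2 fold changes of -0.11 and -0.08. Nonpeptidergic nociceptor markers had 4 of 6 called lower in control mice (median -0.40), and 3 lower and 2 higher in cKO mice (median -0.16). C-LTMR (low-threshold C fibre) markers had 2 of 4 called lower in control and 2 higher in cKO mice. Satellite glia markers had 2 of 5 called higher in both genotypes, and Schwann cell markers 0 of 7 in either. All macrophage, endothelium and fibroblast markers were above 0 in control mice (medians 0.39, 0.40 and 0.32), with 1 of 7, 1 of 5 and 0 of 6 called. In cKO mice their medians were 0.20, 0.07 and -0.48, with 0 called. Skeletal muscle markers had medians of 0.54 in control and -3.39 in cKO mice, with 0 of 5 called in either. The part of these lists in the receptor differences was not tested.

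**Figure D2:**
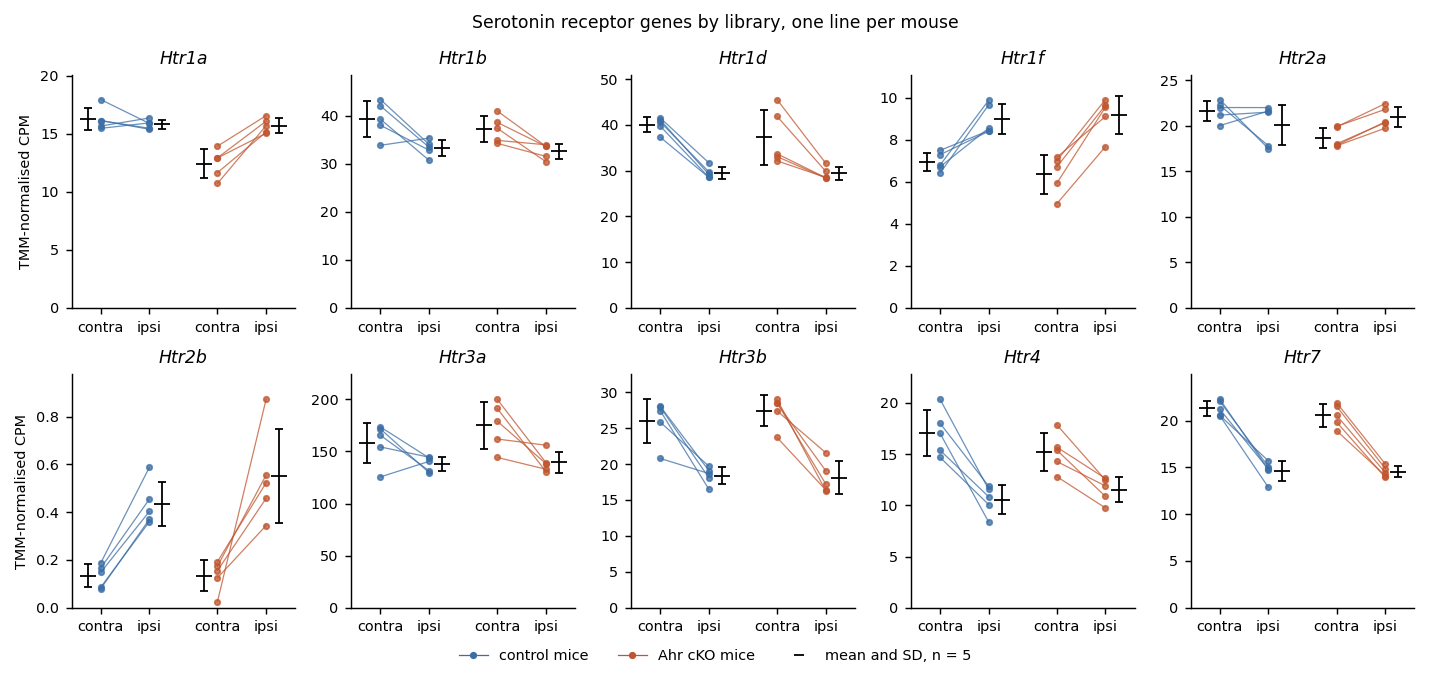
TMM-normalised CPM of the 10 receptor genes in every library, with 1 line per mouse from its contralateral to its ipsilateral library and black bars for mean and SD of 5 mice. Htr7, Htr3b, Htr1d and Htr4 lie lower on the ipsilateral side in every mouse of both genotypes, and Htr1f and Htr2b lie higher in every mouse.

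Of the Gs-coupled receptors, Htr7 had the smallest adjusted p of the 10 genes in both genotypes. Its contralateral control libraries had 20.5, 22.1, 20.6, 22.3 and 21.2 CPM, and the ipsilateral ones 12.9, 15.1, 15.7, 14.7 and 14.8 CPM. In cKO mice the contralateral values were 21.9, 19.8, 18.9, 21.5 and 20.6 CPM and the ipsilateral values 15.4, 13.9, 14.1, 14.9 and 14.5 CPM. Every contralateral library exceeded every ipsilateral library, and the genotypes overlapped on each side. Htr7 fell by 31.4% in control mice (log2 fold change -0.54 ± 0.05, adjusted p = 5.07e-08) and fell by 29.2% in cKO mice (-0.50 ± 0.05, adjusted p = 1.5e-07).

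Htr4, which also signals through Gs and raises cyclic AMP, had 15.4, 14.7, 18.0, 17.0 and 20.4 CPM in contralateral control libraries. Ipsilateral control libraries had 10.8, 10.1, 11.9, 8.37 and 11.5 CPM, none of them reaching the lowest contralateral one. In cKO mice the level went from 15.4, 12.8, 14.3, 17.9 and 15.7 CPM to 10.9, 9.74, 11.9, 12.5 and 12.6 CPM, again without overlap, by a narrow gap between mouse H64 on the contralateral side and H100 on the ipsilateral side. Htr4 fell by 38.3% in control (-0.70 ± 0.11, adjusted p = 3.5e-05) and fell by 24.2% in cKO mice (-0.40 ± 0.11, adjusted p = 0.00614). The difference of the responses was 0.30 ± 0.15 on the log2 scale, with an adjusted p of 0.522.

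The channel subunits Htr3a and Htr3b went in the same direction with different margins. Htr3b, the accessory subunit, had 20.8, 27.4, 25.8, 28.0 and 27.9 CPM in contralateral and 18.7, 16.5, 19.7, 19.1 and 18.1 CPM in ipsilateral control libraries. In cKO mice it had 28.6, 23.7, 29.0, 27.4 and 28.5 CPM against 17.2, 16.4, 16.3, 21.6 and 19.1 CPM. Neither pair of ranges overlapped, and Htr3b fell by 29.2% in control (-0.50 ± 0.09, adjusted p = 0.000128) and fell by 33.9% in cKO mice (-0.60 ± 0.09, adjusted p = 1.54e-05).

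Htr3a, the subunit without which no 5-HT3 channel forms, had 125.6, 171.5, 154.3, 165.4 and 173.5 CPM in contralateral control libraries and 140.5, 129.6, 144.5, 131.4 and 143.7 CPM in ipsilateral ones. Mouse H62 was the only control mouse with a higher ipsilateral value, and the ranges overlapped. The control log2 fold change of -0.20 ± 0.09 did not pass (adjusted p = 0.103), and without H62 it was -0.28 with an adjusted p of 0.018. In cKO mice Htr3a had 179.1, 144.3, 191.3, 161.9 and 200.03 CPM on the contralateral and 138.3, 132.9, 130.7, 156.0 and 139.3 CPM on the ipsilateral side. All 5 cKO mice had the lower value ipsilaterally, with overlapping ranges, and Htr3a fell by 20.4% (-0.33 ± 0.09, adjusted p = 0.00665). Without mouse H95 that change was -0.27 with an adjusted p of 0.052.

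The Htr3a to Htr3b ratio, per kb of exon, was 7.03 ± 0.18 in contralateral and 8.69 ± 0.49 in ipsilateral control ganglia (SD, n = 5). The ranges were 6.83 to 7.24 and 7.97 to 9.20, so the ratio was higher in each ipsilateral control library. In cKO ganglia it was 7.38 ± 0.51 and 8.95 ± 0.50, with ranges of 6.84 to 8.13 and 8.36 to 9.37. Across the 20 libraries the 2 subunits had a Pearson correlation of log2 CPM of 0.88, and of 0.86 after subtraction of group means. That was the highest value within groups among the 9 genes compared, described with no test, since libraries share ganglia, depth and composition.

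Among the other Gi/o-coupled 5-HT1 receptors, Htr1b and Htr1d were lower and Htr1f higher on the injured side. Htr1d, a target of the triptan drugs, had 40.6, 39.7, 41.5, 37.3 and 41.1 CPM in contralateral and 29.7, 28.5, 31.7, 28.5 and 29.2 CPM in ipsilateral control libraries. Contralateral cKO libraries spread more widely, at 41.9, 33.1, 32.1, 45.5 and 33.7 CPM, and H61 and H99 were the high ones; the ipsilateral values were 29.9, 28.4, 28.5, 31.6 and 28.4 CPM. No ranges overlapped between sides. Htr1d fell by 26.3% in control (-0.44 ± 0.08, adjusted p = 0.000117) and fell by 21.2% in cKO mice (-0.34 ± 0.08, adjusted p = 0.00132), and its cKO change was -0.28 without H99.

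Htr1b, an inhibitory receptor at nerve terminals and also a triptan target, had 33.9, 38.1, 42.1, 39.3 and 43.4 CPM in contralateral and 35.4, 32.9, 33.5, 30.8 and 34.1 CPM in ipsilateral control libraries. H62 alone went the other way, and the ranges overlapped. In cKO mice the values were 38.7, 34.3, 34.9, 41.0 and 37.4 CPM against 33.7, 31.6, 34.0, 33.7 and 30.5 CPM, with no overlap and all 5 mice lower. Htr1b fell by 15.4% in control (-0.24 ± 0.06, adjusted p = 0.00412) and fell by 12.3% in cKO mice (-0.19 ± 0.06, adjusted p = 0.0203). The cKO call was lost without H61, H99 or H100, with adjusted p from 0.055 to 0.0884. Htr1b shares 852 exon bases with D430036J16Rik on the other strand, a gene at 9.70 CPM in contralateral and 10.8 CPM in ipsilateral control ganglia. Since the strand setting of the counting is not given, reads from these 2 genes may not be told apart.

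Htr1f, the third triptan-sensitive receptor, had 6.41, 6.80, 6.71, 7.29 and 7.49 CPM in contralateral and 9.66, 9.88, 8.55, 8.40 and 8.43 CPM in ipsilateral control libraries. The cKO values were 7.002, 6.71, 5.93, 7.16 and 4.95 CPM on the contralateral and 9.91, 9.64, 9.55, 9.10 and 7.67 CPM on the ipsilateral side. H100 was lowest of the cKO mice on both sides, and the sides did not overlap in either genotype. Htr1f rose by 29.4% in control (0.37 ± 0.09, adjusted p = 0.0028) and rose by 44.5% in cKO mice (0.53 ± 0.09, adjusted p = 9.15e-05).

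The Gq/11-coupled receptors differed in level and in change. Htr2b had the largest fold change of the 10 genes at the lowest level. It had 0.148, 0.0857, 0.0795, 0.166 and 0.187 CPM in contralateral and 0.403, 0.360, 0.370, 0.454 and 0.588 CPM in ipsilateral control libraries. In cKO mice the contralateral values were 0.125, 0.0254, 0.155, 0.193 and 0.174 CPM and the ipsilateral ones 0.344, 0.873, 0.458, 0.523 and 0.555 CPM. H64 had both the lowest contralateral and the highest ipsilateral value, and the sides did not overlap. Htr2b rose 3.25-fold in control (1.70 ± 0.33, adjusted p = 0.000471) and 4.06-fold in cKO mice (2.02 ± 0.33, adjusted p = 7.23e-05). The contralateral libraries held 2 to 20 counts of Htr2b and the ipsilateral ones 28 to 103. The cutoff of the filter on low counts was reached by every ipsilateral library, by 3 of 5 contralateral control and by 4 of 5 contralateral cKO libraries. Its exons share 252 bases with Psmd1 on the other strand. Psmd1, a proteasome subunit gene, was at 267.7 CPM contralaterally and 276.3 CPM ipsilaterally in control mice, with log2 fold changes of 0.05 in control and 0.08 in cKO mice (adjusted p = 0.365 and 0.0977).

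Htr2a, the Gq/11-coupled receptor studied in serotonin-evoked hyperalgesia, passed in neither genotype. Its contralateral and ipsilateral control values were 20.04, 21.2, 22.0, 22.9 and 22.3 CPM and 21.6, 21.5, 22.0, 17.5 and 17.8 CPM. Mice H96 and H97 had a lower ipsilateral level, H62 a higher one, and H63 and H65 differed by less. In cKO mice they were 17.8, 18.0, 17.9, 19.9 and 19.9 CPM and 19.8, 20.4, 20.4, 21.8 and 22.4 CPM, higher ipsilaterally in 5 of 5 mice by 0.13 to 0.19 on the log2 scale. The log2 fold changes were -0.11 ± 0.06 (adjusted p = 0.221) and 0.16 ± 0.06 (adjusted p = 0.0572). The cKO value passed in 6 of the alternatives tried, at adjusted p from 0.0234 to 0.0449. All contralateral cKO libraries of Htr2a lay below all contralateral control libraries (log2 fold change -0.21 ± 0.06, and -0.24 without H99), a value from the contrast that chose the genes and given with no test.

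**Figure D3:**
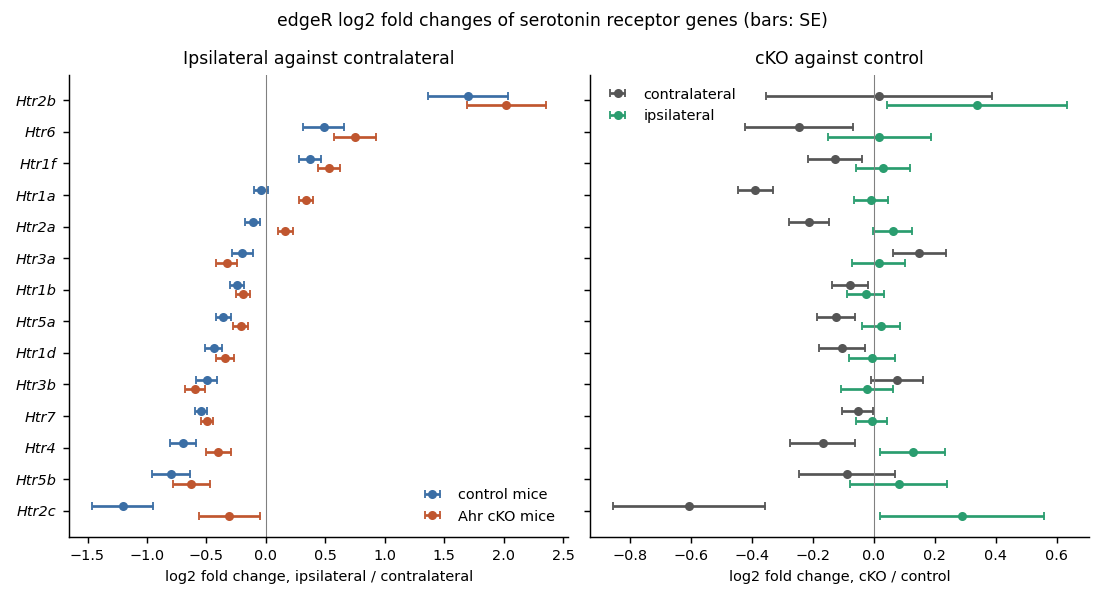
edgeR log2 fold changes of the 14 receptor genes, with bars of 1 SE; the left panel compares ipsilateral with contralateral ganglia within each genotype and the right panel compares cKO with control on each side. Htr2b is at 1.70 and 2.02 in the left panel, and Htr1a is at -0.39 contralaterally and -0.01 ipsilaterally in the right panel.

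The second question is whether genotype alters receptor levels. On the ipsilateral side 0 of the 10 genes were called by edgeR, 0 had an unadjusted p under 0.05, and DESeq2 and limma-voom also called 0, against 0.007% of all genes. Ahr itself had 28.9 to 36.8 CPM in ipsilateral cKO and 30.2 to 38.05 CPM in ipsilateral control libraries, ranges that overlapped. Its ipsilateral log2 fold change was -0.11 ± 0.07, and it was not called. A lower Ahr level was thus not shown on this side, and its part in the receptor values was not tested. The ipsilateral log2 fold changes of the 10 genes ran from -0.03 for Htr1b to 0.34 ± 0.30 for Htr2b, with a median of 0.004. Apart from Htr2b and Htr4 (0.13 ± 0.11), all lay within 0.07 of 0. On the contralateral side, where the values chose the genes, the other 9 had log2 fold changes from -0.21 for Htr2a to 0.15 ± 0.09 for Htr3a, with 6 below 0 and 3 above 0. The third question is whether the injury response differs between genotypes. Of the 9 genes other than Htr1a, 0 passed the interaction test in edgeR, which called 0% of all genes tested, and 0 in DESeq2. An unadjusted edgeR p under 0.05 was found for 1 of the 9 (Htr2a), and for 2799 of the 28564 genes tested. The interaction was 0.27 ± 0.09 for Htr2a (adjusted p = 0.485).

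Without both libraries of H99, 7 of the 9 genes other than Htr1a were called for injury in cKO mice, against 31.5% of all genes; Htr2a and Htr1b were not. The cKO injury log2 fold changes were then -0.48 for Htr7, -0.36 for Htr4, -0.66 for Htr3b, -0.40 for Htr3a, -0.28 for Htr1d, -0.16 for Htr1b, 0.59 for Htr1f, 2.21 for Htr2b, 0.18 for Htr2a and 0.37 for Htr1a. Each had the sign it had with H99. Contralaterally between genotypes, and given as a description, the values without H99 were -0.11 for Htr1b, -0.18 for Htr1d, -0.17 for Htr1f, -0.14 for Htr2b, 0.18 for Htr3a, 0.08 for Htr3b, -0.23 for Htr4 and -0.07 for Htr7.

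Markers of Sst/Nppb itch neurons are set beside the Htr1a values. These neurons are known to express Htr1f, whose contralateral log2 fold change between genotypes was -0.13 ± 0.09, with overlapping ranges. In contralateral cKO ganglia the 6 markers summed to 502.5 to 632.1 CPM, against 580.2 to 671.9 CPM in contralateral control ganglia, and all 6 had a log2 fold change below 0, with a median of -0.33, 0 called and 5 at an unadjusted p under 0.05, which 5006 of the 28564 genes tested had. In cKO mice 4 of 6 were called higher on the ipsilateral side, against 16.2% of all genes, with a median log2 fold change of 0.53. In control mice 2 were called higher and 1 lower, against 13.8% and 16% of all genes, with a median of 0.12. Jak1, which is expressed well beyond these cells, gave most of the sum; none of the markers was at 0. Il31ra, the itch cytokine receptor subunit, had a median of 42.6 CPM in contralateral control and 29.6 CPM in contralateral cKO libraries. In the same contrast the nonpeptidergic nociceptor markers had 6 of 6 and the C-LTMR markers 4 of 4 log2 fold changes below 0, each with a median of -0.22 and 0 called, and 5 and 3 of them had an unadjusted p under 0.05. Peptidergic nociceptor markers had 3 above and 3 below 0 (median 0.043), myelinated neuron markers 2 above and 5 below 0 (median -0.022), and both cold neuron markers were above 0 (median 0.42), with 0 called. The general sensory neuron markers had 2 above and 8 below 0 (median -0.067), with 0 called and 4 at an unadjusted p under 0.05. Fibroblast markers summed to 934.8 to 2236 CPM in contralateral cKO and 801.6 to 1356 CPM in contralateral control libraries, ranges that overlapped, with a median log2 fold change of 0.81, 0 of 6 called and 5 at an unadjusted p under 0.05. All tested markers of macrophages (7, median 0.31), endothelium (5, median 0.12) and erythroid cells (5, median 0.47) were above 0 too, with 0 called. Skeletal muscle markers summed to a median of 14.5 CPM in contralateral cKO and 60.7 CPM in contralateral control libraries, while the contralateral library of cKO mouse H100 reached 1562 CPM; the control libraries ran up to 324.6 CPM. Their fitted log2 fold changes had a median of 1.43, with 0 of 5 called, opposite in direction to the medians of the sums. H100 also had the lowest contralateral Htr1a level, and without its 2 libraries the Htr1a values were -0.34 between genotypes on the contralateral side and 0.29 for injury in cKO mice. The part of any of these lists in the Htr1a difference was not tested.

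For each gene, the 3 genes with the most similar log2 CPM over the 20 libraries were sought among the 17292 genes with a symbol that averaged 1 CPM or more, as a description. Those closest to Htr1a were Pde4c, a phosphodiesterase that breaks down cyclic AMP (r = 0.92), Il31ra (0.90) and Npy2r, a neuropeptide Y receptor (0.89). Pde4c had a mean of 10.1 CPM in contralateral control, 7.64 in contralateral cKO, 10.9 in ipsilateral control and 11.2 in ipsilateral cKO ganglia. After subtraction of group means the 3 correlations were 0.83, 0.77 and 0.69. Htr1d was closest to Gfod1, Dscam and Dnajc6 (0.98 each), Htr1b to Rims2, Disp3 and Slc6a15 (0.930 to 0.945), and Htr1f to Rasgrf2, Mfap3l and Gm13748 (0.941 to 0.957). Htr3a was closest to Nrsn2, Snapin and Syndig1l (0.897 to 0.908), Htr3b to Vstm2l, Hapln3 and Ralyl (0.958 to 0.965), Htr4 to Brinp2, Lrrc75b and Gm45278 (0.945 to 0.952) and Htr7 to Gm16638, Ccdc74a and Gm10605 (0.98 each). Htr2a had the weakest nearest neighbours, Dpp3, Eftud2 and Sec61a2 (0.743 to 0.789). Htr2b was left out, being under 1 CPM.

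The 4 receptor genes outside the list were tested too. Htr5b, a receptor with a rodent gene and a disrupted human one, had 5.99 to 7.84 CPM (median 6.82) in contralateral and 3.83 to 4.15 CPM in ipsilateral control libraries, without overlap, and fell by 42.4% (-0.80 ± 0.16, adjusted p = 0.000663). In cKO mice it fell by 35.2% (-0.63 ± 0.16, adjusted p = 0.00474) with overlapping ranges, H64 being low on both sides; a fit of the cKO libraries alone gave an adjusted p of 0.0516. Htr5a, a Gi/o-coupled receptor, fell by 22.0% in control (-0.36 ± 0.06, adjusted p = 0.000163) and fell by 13.6% in cKO mice (-0.21 ± 0.06, adjusted p = 0.0145), and the cKO change was -0.15 with an adjusted p of 0.104 without H99. Htr2c, at 0.108 to 0.626 CPM, fell in control mice (-1.20 ± 0.26, adjusted p = 0.00113) and had -0.31 ± 0.26 in cKO mice (adjusted p = 0.407). Htr6, a Gs-coupled receptor at 0.310 to 0.949 CPM, rose in both genotypes (0.49 ± 0.17 and 0.75 ± 0.17, adjusted p = 0.038 and 0.00221). The control call of Htr6 was lost with mouse as a fixed replicate block (adjusted p = 0.0689) and without any 1 of the 5 control mice, at adjusted p from 0.0572 to 0.17.

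Genes that make, move or answer to serotonin were taken as 6 lists of 51 genes in all, of which 48 were tested; Aanat, Asmt and Kcnj5 were too low. In control mice 23 of 48 were called, 7 higher and 16 lower on the ipsilateral side, against 29.9% of all genes (13.8% higher, 16% lower). In cKO mice 22 of 48 were called, 9 higher and 13 lower, against 31.3% (16.2% higher, 15.1% lower). These shares of all genes include genes at low level. When only the 19365 genes averaging 1 CPM or more were fitted, 40.5% were called in control and 42.8% in cKO mice. The part of expression level in these counts, and in those of the lists below, was not tested. The median log2 fold changes of the 48 genes were -0.10 and -0.07. Between genotypes none of the 48 was called on either side by edgeR, with 13 at an unadjusted p under 0.05 contralaterally, where 5006 of the 28564 genes had one, and 0 ipsilaterally. DESeq2 called 2 contralaterally, against 3.64% of all genes, and edgeR without H99 called 14, against 11.5%.

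In the list for synthesis, transport and breakdown, 2 of 11 tested genes were called in control mice, Slc6a4 and Tph1, a share below the 29.9% of all genes, and both rose. Slc6a4, the serotonin reuptake transporter, had 0.856, 0.465, 0.328, 0.614 and 0.200 CPM in contralateral and 4.69, 5.03, 4.82, 4.88 and 4.10 CPM in ipsilateral control libraries. The cKO values were 0.614, 0.875, 0.577, 0.217 and 0.472 CPM against 5.203, 6.92, 4.82, 3.91 and 5.80 CPM. No ranges overlapped, and Slc6a4 rose 9.42-fold in control (3.24 ± 0.31, adjusted p = 1.82e-07) and 9.67-fold in cKO mice (3.27 ± 0.31, adjusted p = 1.36e-07).

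Tph1, the tryptophan hydroxylase of cells outside the brain and the rate-limiting enzyme of serotonin synthesis there, had 0.349, 0.416, 0.288, 0.332 and 0.349 CPM in contralateral and 1.61, 1.92, 1.52, 1.88 and 2.32 CPM in ipsilateral control libraries. In cKO mice it went from 0.307, 0.380, 0.355, 0.302 and 0.273 CPM to 2.35, 1.81, 1.69, 1.09 and 2.19 CPM, with H99 lowest on the ipsilateral side. Again no ranges overlapped. Tph1 rose 5.34-fold in control (2.42 ± 0.18, adjusted p = 1.53e-09) and 5.62-fold in cKO mice (2.49 ± 0.18, adjusted p = 9.46e-10). Tph2, the neuronal isoform, did not pass (-0.17 ± 0.12 in control and 0.05 ± 0.12 in cKO mice, adjusted p = 0.345 and 0.807). In cKO mice Slc18a2, a vesicular monoamine transporter, also rose (0.20 ± 0.07, adjusted p = 0.0416) and Slc22a3, a low-affinity uptake carrier, fell (-0.38 ± 0.14, adjusted p = 0.0403). Both of these calls were lost under several alternatives, including Slc18a2 with mouse as a fixed replicate block (adjusted p = 0.0598).

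Mast cells and platelets carry Slc6a4, and mast cells carry Tph1, so their markers are set beside these rises. The mast cell list summed to 97.9 to 112.4 CPM in contralateral and 81.0 to 94.4 CPM in ipsilateral control libraries, most of it Kit, which other ganglion cells express as well. Mcpt4, a mast cell protease, had a median of 3.32 CPM contralaterally and 6.55 CPM ipsilaterally in control mice and of 4.90 and 6.24 CPM in cKO mice. Of the 6 mast cell markers 1 was called higher and 1 lower in control mice, and 1 lower in cKO mice, against 13.8% higher and 16% lower of all genes in control and 15.1% lower in cKO mice. The marker called lower was Kit, with medians of 91.6 CPM contralaterally and 70.8 CPM ipsilaterally in control mice. The other 5 had log2 fold changes above 0 in both genotypes. The 4 platelet markers summed to 6.23 to 16.5 CPM in contralateral and 8.33 to 16.6 CPM in ipsilateral control libraries, with 0 called in either genotype. In cKO mice the platelet sums were 6.85 to 17.9 CPM contralaterally and 8.39 to 35.1 CPM ipsilaterally, with mouse H100 highest on the ipsilateral side. The median log2 fold changes were 0.53 in control and 0.18 in cKO mice for the mast cell markers, and 0.40 and 0.38 for the platelet markers. No marker of either list was at 0, and their part in the rises was not tested.

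**Figure D4:**
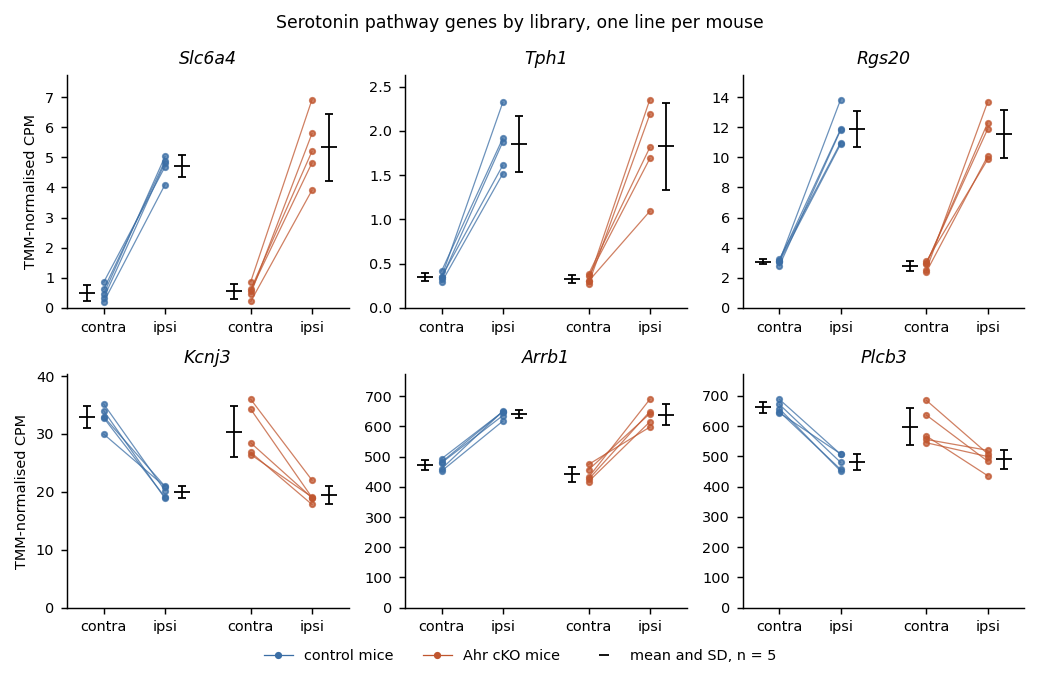
TMM-normalised CPM of 6 serotonin pathway genes in every library, with 1 line per mouse and black bars for mean and SD of 5 mice. Slc6a4, Tph1, Rgs20 and Arrb1 lie higher and Kcnj3 lower on the ipsilateral side in every mouse, while Plcb3 is lower with more spread among contralateral cKO libraries.

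Downstream of the Gi/o-coupled receptors, 6 of 8 tested G protein and potassium channel genes were called in control mice, 1 higher and 5 lower, and 4 of 8 in cKO mice, 1 higher and 3 lower, against 29.9% and 31.3% of all genes. Kcnj3, the GIRK1 subunit of the potassium channel that these receptors open, had 30.0 to 35.2 CPM (median 33.0) in contralateral and 18.9 to 21.0 CPM (median 20.2) in ipsilateral control libraries. It fell by 39.3% in control (-0.72 ± 0.08, adjusted p = 3.59e-07) and fell by 36.2% in cKO mice (-0.65 ± 0.08, adjusted p = 1.3e-06). Kcnj3 shares 1621 exon bases with Gm26794 on the other strand, and their reads may not be told apart. Kcnj9, the GIRK3 subunit, fell too (-0.53 ± 0.15 and -0.69 ± 0.15, adjusted p = 0.0122 and 0.00148). Among the G protein alpha subunits Gnai1 fell (-0.27 ± 0.04 and -0.32 ± 0.04, adjusted p = 2.71e-05 and 3.37e-06) while Gnai3 rose (0.17 ± 0.03 and 0.22 ± 0.03, adjusted p = 3.17e-05 and 1.17e-06).

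For the Gq/11 branch, 3 of 6 genes were called lower in control and 1 of 6 in cKO mice, against 16% and 15.1% of all genes. Plcb3, a phospholipase C, fell in both (-0.46 ± 0.06 and -0.29 ± 0.06, adjusted p = 3.07e-06 and 0.000626), and Plcb1 and Gnaq fell in control mice (-0.18 and -0.15, adjusted p = 0.0145 and 0.0146). The 2 Gs alpha subunit genes, Gnas and Gnal, were called in neither genotype. Of 15 chaperone, scaffold and desensitisation genes, 9 were called in control mice, 4 higher and 5 lower, and 11 in cKO mice, 5 higher and 6 lower, against 29.9% and 31.3% of all genes.

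Rgs20, a GTPase-activating protein that shortens Gi/o and Gz signals, had 2.80, 3.10, 3.14, 3.25 and 3.07 CPM in contralateral and 11.8, 13.8, 11.9, 10.99 and 10.9 CPM in ipsilateral control libraries. Its cKO means were 2.78 ± 0.30 and 11.6 ± 1.6 CPM (SD, n = 5). It rose 3.86-fold and 4.15-fold (1.95 ± 0.09 and 2.05 ± 0.09, adjusted p = 1.47e-12 and 6.12e-13). Rgs20 shares 252 exon bases with Atp6v1h and Gm17101 on the other strand, and their reads may not be told apart. Arrb1, a beta-arrestin that desensitises G protein-coupled receptors, rose as well (0.44 ± 0.04 and 0.53 ± 0.04, adjusted p = 4.1e-08 and 1.51e-09), whereas Grk2, a receptor kinase, fell (-0.30 ± 0.04 and -0.19 ± 0.04, adjusted p = 1.32e-05 and 0.00173). Dlg4, the scaffold PSD-95, fell in both genotypes (-0.20 ± 0.03 and -0.15 ± 0.03, adjusted p = 0.000109 and 0.00149).

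Of 6 published regulators of Htr1a transcription, 3 were called lower in control and 2 in cKO mice, against 16% and 15.1% of all genes. Deaf1, a factor that binds the Htr1a promoter, fell in both (-0.38 ± 0.03 and -0.33 ± 0.03, adjusted p = 7.19e-09 and 5.87e-08). Its medians were 45.01 and 34.9 CPM in control and 45.6 and 36.1 CPM in cKO mice, contralateral before ipsilateral. Nr3c1, the glucocorticoid receptor, fell in cKO mice (-0.25 ± 0.06, adjusted p = 0.00292) and had -0.09 ± 0.06 in control mice (adjusted p = 0.321). Cc2d1a and Cc2d1b, repressors of Htr1a, fell in control mice (-0.12 and -0.10, adjusted p = 0.0124 and 0.0222), and both calls were lost without mouse H63 (adjusted p = 0.144 and 0.175) and without H97 (0.0865 and 0.117).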

How the data were processed

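RNA was measured as stranded mRNA libraries with paired 150 bp reads, per the labels' protocols. The authors deposited whole-number exonic counts per gene, not normalized. HISAT2, Picard and the builds mm10 and mm39 are named in the submitters' processing notes; the counting program, annotation and strand setting are not given in the sources used here. The deposited FPKM table was not used. Symbols came from GENCODE M21 by identifier without version, and exon lengths from its merged exons.

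The 20 libraries fell into 4 groups of 5 by library name, which was followed for a sample whose title shortens its mouse number. Counts were fitted in R 4.3.3 with edgeR 4.0.16 (TMM, robust quasi-likelihood F-test, filterByExpr with a minimum count of 10 and a minimum total of 15), in 1 joint model with 4 group means. Benjamini-Hochberg adjustment ran over 28564 genes in each of 5 comparisons, and a call is an adjusted p under 0.05. Values given as ± after a log2 fold change are SE. Log2 CPM used a prior count of 2.

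Both libraries of a mouse come from the same animal. The correlation of their deviations from group means had a median of 0.186 over 10 mice (-0.0546 to 0.361). The replicate block was an alternative, beside DESeq2 1.42.0, limma-voom (limma 3.58.1), RLE factors, other filters, a covariate for the range of mouse numbers, and leaving out each mouse. Replicate libraries differed beyond counting error (40 pairs had chi-square values of 5.3 to 58.6 for each degree of freedom). The named genes were all members, all receptor genes, up to 4 called genes per pathway list with the smallest p, Ahr and the 3 nearest genes by correlation; Tph2, the overlapping genes and marker genes were added with values in view. The members and lists were chosen with earlier results of these data known.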

Additional observations from a re-analysis of the deposited data

Results flagged for a closer look

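In groups of 5 mice, a value was singled out where its gap to the nearest of the others exceeded 0.71 of the group's range (Dixon's 95% limit). Of 198 groups examined 7 did so, against 9.9 that chance would give. Htr1a in contralateral control ganglia was high in mouse H96, at 18.0 CPM (ratio 0.73). The Htr2b response of cKO mouse H64 was high, at 4.25 on the log2 scale (ratio 0.917), from a contralateral library with 2 counts. The Htr7 response of cKO mouse H95 was the smallest fall, at -0.42 (ratio 0.779). Htr5a was low in ipsilateral control mouse H96, at 5.15 CPM (ratio 0.711), and Cc2d1a was high in the same library, at 37.5 CPM (ratio 0.738). Among control responses of Htr6, mouse H62 was high at 0.89 (ratio 0.792). Slc18a2 was low in contralateral control mouse H62, at 5.92 CPM (ratio 0.735).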

How the results depend on the processing

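Of the 9 members other than Htr1a, 7 were called for injury in control mice under the alternatives run, except 8 without H62 and 6 with a mean of at least 1 CPM, which leaves out Htr2b. In cKO mice 7 to 9 of them were called. Between genotypes ipsilaterally it was 0 under all alternatives run. On the contralateral side, the selecting contrast, the count of 1 (Htr1a) is a description from which nothing is read; it became 2 with DESeq2, became 0 in a fit of the 10 contralateral libraries alone, and ran from 0 (without H63, H95 or H97) to 2 (without H99). The interaction count of 0 became 1 with DESeq2; that gene was Htr1a, whose interaction holds the selecting libraries, and nothing is read from it. With mouse as a fixed replicate block the injury counts without Htr1a were 7 and 8, and no member's call changed. Over all genes, the 21 contralateral calls became 1041 with DESeq2, 50 without a filter, 45 with a mean of at least 1 CPM and 2 in the fit of contralateral libraries alone. Interaction calls went from 0 to 11 with DESeq2 and 43 without H99. The causes were not tested.

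Several log2 fold changes between -0.1 and 0.1, and the Htr2b interaction of 0.32 ± 0.48 (SE), changed sign. Htr2b contralaterally was 0.017, -0.068 with the mouse number covariate, -0.13 with mouse as a random replicate block, and -0.14 to 0.27 on leaving out mice. Htr3a ipsilaterally between genotypes was 0.016, -0.0066 with that covariate and -0.027 to 0.041 on leaving out mice. Other ipsilateral genotype ranges on leaving out mice were -0.029 to 0.0069 for Htr1a, -0.034 to 0.026 for Htr1d, -0.092 to 0.017 for Htr3b, -0.050 to 0.026 for Htr7, -0.023 to 0.054 for Htr5a and -0.064 to 0.12 for Htr6. Htr1a injury in control mice ran from -0.068 to 0.0034 (above 0 without H96), and Htr5b contralaterally from -0.19 to 0.046 (above 0 without H64). Interactions ran from -0.00022 to 0.12 for Htr1b (below 0 without H95) and from -0.17 to 0.50 for Htr2b (below 0 without H64). The fixed block gives no value for genotype contrasts. Htr2b rests on 2 to 20 contralateral counts per library, and the reads carry no molecular identifiers.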
